A study of Homo sapiens with 9 samples.

Results

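EGF-family ligands and growth receptors were described through 9 genes, which were taken by name from the gene column of both deposited tables, out of 58174 genes listed there. They were the EGF-family ligands AREG, EREG, HBEGF and TGFA, the ERBB-family receptors EGFR, ERBB2 and ERBB3, and the receptors MET and AXL, which belong to other families. Total RNA, depleted of ribosomal RNA, was sequenced from ES-2 cells, an established line derived from an ovarian cancer. All cells were grown in the same serum-containing medium, were transfected with siRNA and were harvested after 72 hours. The siC group (3 libraries) received control siRNAs, the siIGF2BP1 group (3 libraries) a pool of siRNAs against the mRNA-binding protein IGF2BP1, and the siSRF group (3 libraries) a pool against the transcription factor SRF. Each target was depleted with 1 pool, so an effect of the target and an effect of the pool on other mRNAs cannot be told apart. The labels do not say whether the replicates of a group were separate cultures, so the p-values measure the spread between these libraries, which may be technical. The libraries held 6421764 to 9416175 reads on genes, with a median of 7377934.

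As background, the EGF-family ligands are made as membrane proteins and are released from the cell surface by ADAM proteases, after which AREG, EREG, HBEGF and TGFA bind EGFR. Bound ERBB receptors pair with each other and signal through the RAS and PI3K-AKT pathways, with ERBB2 acting as a partner without a known ligand and ERBB3 as a partner with little kinase activity of its own. MET is the receptor of HGF and AXL that of GAS6, and both are studied in ovarian carcinoma for their links to cell migration and invasion.

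The mRNAs targeted by the siRNAs were examined first. Levels are given in FPKM, the unit the authors deposited, which divides the reads of a gene by its length and by the size of the library. Genes of different length can so be set side by side, but only approximately. The listed length of a gene is the same whichever of its transcripts the cells made. IGF2BP1 mRNA was at 12.8, 13.5 and 12.1 FPKM in the siC libraries, at 4.18, 4.14 and 4.02 FPKM in the siIGF2BP1 libraries and at 13.7, 14.6 and 14.4 FPKM in the siSRF libraries. SRF mRNA was at 13.6, 14.1 and 16.0 FPKM in siC, at 1.63, 1.36 and 1.42 FPKM in siSRF and at 5.80, 5.42 and 6.80 FPKM in siIGF2BP1. Each targeted mRNA was thus lower in all 3 libraries of its own knockdown than in every siC library, and SRF mRNA was also lower in all 3 siIGF2BP1 libraries. The mean level left was 32.2% of siC for IGF2BP1 in its knockdown and 10.1% for SRF in its knockdown, while SRF stood at 41.3% of siC after IGF2BP1 depletion. In limma, a linear model fitted across all genes, SRF fell by 1.26 on the log2 scale in siIGF2BP1 (SE 0.107, adjusted p 0.00111). That call ended when siC replicate 2, siIGF2BP1 replicate 1 or siIGF2BP1 replicate 2 was left out (limma adjusted p 0.0104 to 0.0129), and held without each of the other libraries. The calls of each targeted mRNA in its own knockdown were made in all 18 alternative fits.

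The label of the line was compared with marker genes. Of 8 epithelial carcinoma markers, KRT7, KRT8 and KRT18 were above 1 FPKM in all 9 libraries, with KRT7 the most abundant, while EPCAM, CDH1 and KRT19 were listed at 0 in all 3 siC libraries and PAX8 and MUC1 reached at most 0.289 FPKM. All 6 mesenchymal markers were detected in every library, VIM being the most abundant with siC, siIGF2BP1 and siSRF means of 1055, 883 and 853 FPKM. SPARC had means of 74.5, 240.9 and 46.8 FPKM in the same order, THY1 11.4, 41.3 and 11.2 FPKM, CDH2 25.4, 40.1 and 29.8 FPKM and FN1 8.25, 4.70 and 3.15 FPKM. In siIGF2BP1, SPARC rose by 1.69, THY1 by 1.85 and CDH2 by 0.66 on the log2 scale, while FN1 fell by 0.80 (limma adjusted p 0.000154, 0.000151, 0.00282 and 0.00267). In siSRF, FN1 fell by 1.36, SPARC by 0.67 and VIM by 0.31 (limma adjusted p 0.000329, 0.00157 and 0.00910). The leukocyte markers PTPRC and CD3E were listed at 0 in all 9 libraries, and the 5 leukocyte markers together reached at most 0.945 FPKM in a library. Of 4 endothelial markers, CLDN5 was listed at 0 in all 9 libraries, PECAM1 and VWF reached at most 0.387 FPKM, and CDH5 had means of 9.38, 15.2 and 7.93 FPKM in siC, siIGF2BP1 and siSRF. The siC libraries thus had simple keratins and a high vimentin level, with EPCAM and CDH1 listed at 0, and EPCAM reached at most 0.259 FPKM in the other groups. KRT7 rose by 0.59 on the log2 scale in siIGF2BP1 and by 0.33 in siSRF (limma adjusted p 0.00142 and 0.00402), KRT8 by 0.55 in siIGF2BP1 (limma adjusted p 0.00455), KRT18 by 0.91 in siSRF (limma adjusted p 0.000329) and CDH5 by 0.70 in siIGF2BP1 (limma adjusted p 0.00873). KRT7 had means of 101, 152 and 127 FPKM and KRT18 43.4, 41.8 and 81.7 FPKM in siC, siIGF2BP1 and siSRF. Summed over the list, the epithelial markers went from a mean of 154 FPKM in siC to 207 FPKM in siIGF2BP1 and 219 FPKM in siSRF, and the mesenchymal markers, a sum made up mostly of VIM, from 1176 FPKM to 1211 and 946 FPKM. The summed endothelial level was 9.71, 15.5 and 8.03 FPKM in the same order, nearly all of it from CDH5. The part of these shifts in the results on ligands and receptors was not tested.

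In siC the 9 genes differed widely in mRNA level. AXL ranked 97 among the 19799 protein-coding genes by mean FPKM, MET ranked 615, HBEGF 1398 and EGFR 1883, and all of these were among the 10328 protein-coding genes with at least 1 FPKM. EREG ranked 6241 and AREG 9017, while ERBB3 (rank 12160) and ERBB2 (rank 13050) were far below 1 FPKM and TGFA was listed at 0. Neighbours in this order were separated in the siC libraries down to ERBB3. The siC libraries of ERBB3 and ERBB2 overlapped, and ERBB2, with 1 to 5 reads per siC library, cannot be set apart from TGFA at this depth. After IGF2BP1 depletion EGFR stood above HBEGF, and the lowest AREG library lay within the range of ERBB3 in that group. In siSRF the order of the first 6 genes was that of siC. The plot of levels by library shows all 9 genes on their own scales.

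**Figure D1:**
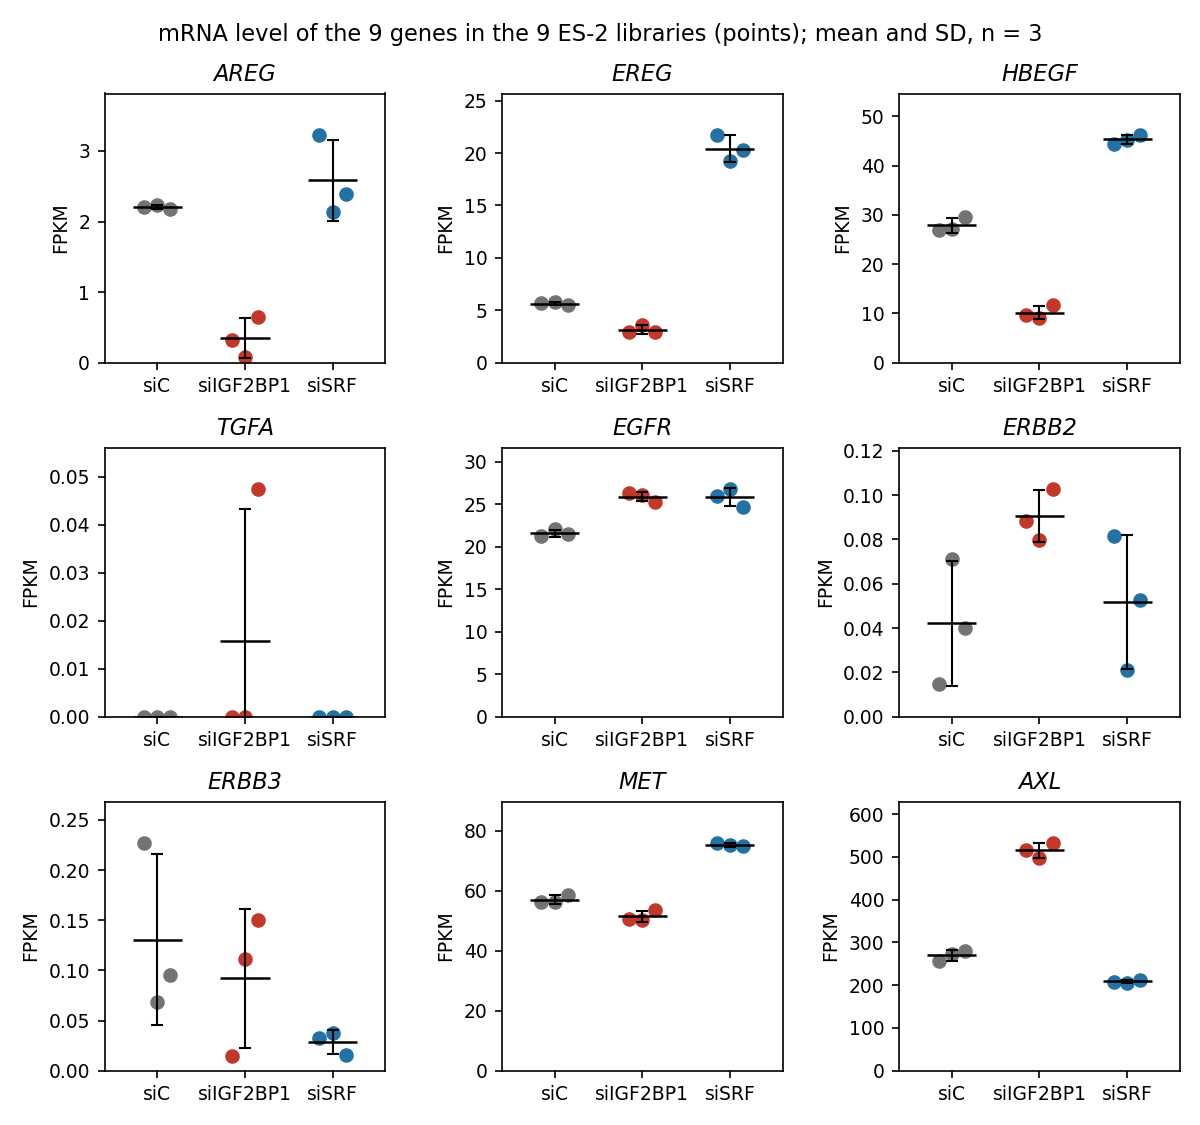
Level in FPKM (vertical axis) of each of the 9 genes in the 3 siC, 3 siIGF2BP1 and 3 siSRF libraries (points), with the group mean (line) and SD (bar). HBEGF and EREG are lowest in siIGF2BP1 and highest in siSRF, whereas AXL is highest in siIGF2BP1 and lowest in siSRF.

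The comparisons asked which of these mRNAs changed after depletion of each regulator. Genes whose level averaged 0.1 FPKM or more in the 6 libraries compared were tested with limma on log2(FPKM + 0.1), a scale that understates changes of genes near 0.1 FPKM, and a gene was called at an adjusted p of at most 0.01. Between siIGF2BP1 and siC, 7 of the 9 genes passed the filter and 4 were called, beside 7.12% of all 22292 genes tested. EGFR and AXL were the 2 called higher, against 3.55% of all genes, and EREG and HBEGF the 2 called lower, against 3.57%. Between siSRF and siC, 6 of the 9 passed the filter and 4 were called, beside 12.2% of 21857 genes. EREG, HBEGF and MET were the 3 called higher, against 6.85% of all genes, and AXL was the 1 called lower, against 5.34%. The groups siIGF2BP1 and siSRF were also compared directly, which leaves siC out of the fit: 5 of the 6 genes that passed were called, beside 20.0% of 22311 genes. AXL was called higher in siIGF2BP1 than in siSRF (8.82% of all genes) and AREG, EREG, HBEGF and MET were called lower (11.2%). The members were chosen with earlier results of these data known and the genes that passed are not all of them, so nothing is read from these shares about the family as a whole. With limma-voom on the read counts recovered from the FPKM, 5 of the 9 genes were called in each comparison, beside 17.1% of all genes for siIGF2BP1 against siC, 23.4% for siSRF against siC and 31.0% for siIGF2BP1 against siSRF. The 2 comparisons with siC share the same 3 siC libraries, so their values are given side by side and not counted as independent of each other.

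**Figure D2:**
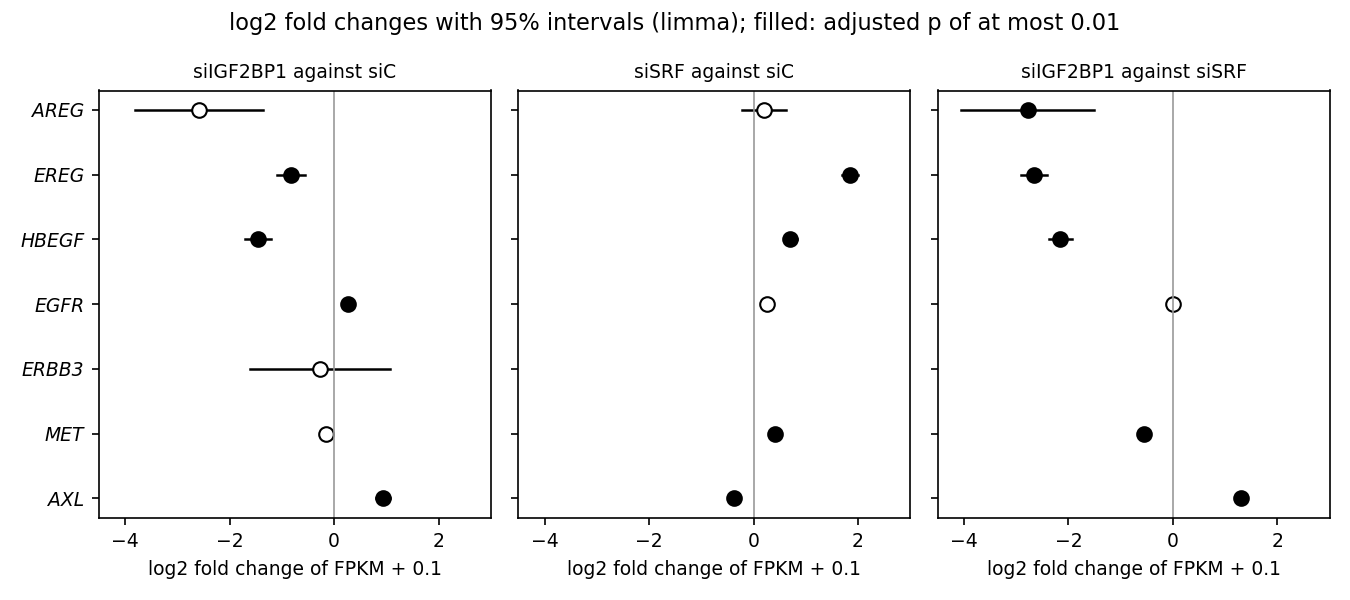
Log2 fold change of FPKM + 0.1 (horizontal axis) with its 95% interval from limma for the members that passed the filter, in the 3 comparisons. Filled points have an adjusted p of at most 0.01, and the intervals of AREG and ERBB3 are the widest.

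The plot of log2 fold changes places the ligands EREG and HBEGF on opposite sides of 0 in the 2 comparisons with siC, and AXL on the other side from them each time. EGFR lies slightly to the right of 0 in both comparisons with siC and at 0 in the direct one. These are levels of bulk RNA, in which fewer cells with an mRNA and less of the mRNA in each cell cannot be told apart.

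HBEGF, which encodes heparin-binding EGF-like growth factor, was the most abundant of the 4 member ligands in every library. Its level was 26.8, 27.1 and 29.6 FPKM in siC, 9.72, 9.08 and 11.6 FPKM in siIGF2BP1 and 44.4, 45.3 and 46.3 FPKM in siSRF. All siIGF2BP1 libraries lay below, and all siSRF libraries above, the 3 siC libraries. The mean of 27.9 ± 1.54 FPKM (SD, n = 3) in siC compared with 10.1 ± 1.32 FPKM (SD, n = 3) after IGF2BP1 depletion and 45.3 ± 0.926 FPKM (SD, n = 3) after SRF depletion, behind which stood 200 to 1245 reads per library. In limma, HBEGF fell by 1.46 on the log2 scale in siIGF2BP1 (SE 0.0996, adjusted p 0.000585) and rose by 0.70 in siSRF (SE 0.0506, adjusted p 0.000516). The direct comparison of siIGF2BP1 with siSRF gave a log2 fold change of -2.16 (SE 0.0911, limma adjusted p 3.23e-05). HBEGF was called in the same direction in all 18 alternative fits of each of these 3 comparisons, the 6 that left out 1 library included. The exact two-sided permutation test of the means gave p = 0.1 for each pair of groups, the smallest p that 3 against 3 libraries can give.

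EREG encodes epiregulin. It was at 5.67, 5.77 and 5.47 FPKM in siC, at 2.97, 3.62 and 2.89 FPKM in siIGF2BP1 and at 21.8, 19.3 and 20.3 FPKM in siSRF. The 3 groups did not overlap, with siIGF2BP1 the lowest and siSRF far above the others. The means were 5.63 ± 0.153, 3.16 ± 0.402 and 20.4 ± 1.26 FPKM (SD, n = 3 each) for siC, siIGF2BP1 and siSRF. In siSRF the mean was 3.63-fold that of siC, a rise of 1.84 on the log2 scale (SE 0.0632, limma adjusted p 6.07e-05) that was called in all 18 alternatives. In siIGF2BP1 EREG fell by 0.82 on the log2 scale (SE 0.109, limma adjusted p 0.00499). That fall kept its direction in 18 alternatives and its call in 12 of them. Of the 6 fits without 1 library, the call held only without siIGF2BP1 replicate 2 (limma adjusted p 0.00864) and ended without siC replicate 1, 2 or 3 or siIGF2BP1 replicate 1 or 3 (limma adjusted p 0.0234 to 0.0288). Between siIGF2BP1 and siSRF the log2 fold change of EREG was -2.66 (SE 0.101, limma adjusted p 2.31e-05), called in all 18 alternatives. The exact two-sided permutation p was 0.1 for each pair of groups.

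AREG encodes amphiregulin and lies on the same chromosome arm as EREG. Its level was 2.21, 2.23 and 2.18 FPKM in siC, 0.317, 0.0832 and 0.645 FPKM in siIGF2BP1 and 3.23, 2.13 and 2.39 FPKM in siSRF. The siIGF2BP1 libraries were all below the others, and siSRF overlapped siC. The reads behind these levels were few: 24, 25 and 26 in siC, 4, 1 and 9 in siIGF2BP1 and 38, 32 and 29 in siSRF. The mean was 2.21 ± 0.0255 FPKM (SD, n = 3) in siC, 0.348 ± 0.282 FPKM (SD, n = 3) in siIGF2BP1 and 2.58 ± 0.576 FPKM (SD, n = 3) in siSRF. Against siC, AREG in siIGF2BP1 had a log2 fold change of -2.58 (SE 0.507, 95% interval -3.81 to -1.36) with a limma adjusted p of 0.0189, which did not pass the threshold. At these low levels the size depends on the value added before the logarithm: with 1 FPKM in place of 0.1 the log2 fold change was -1.27, and over 18 alternatives it ran from -3.06 to -1.27. With limma-voom on the recovered reads it passed, at -2.81 and an adjusted p of 1.95e-05. It was called in 4 of the alternatives, none of them a fit without 1 library, and its limma adjusted p ran from 1.95e-05 to 0.0809 over the 18. These 4 include the fit at a threshold of 0.05, where the limma adjusted p was still 0.0189. The siSRF libraries gave a log2 fold change of 0.20 against siC (SE 0.171, limma adjusted p 0.484) and an exact two-sided permutation p of 0.4. Between siIGF2BP1 and siSRF, AREG had a log2 fold change of -2.78 (SE 0.522, limma adjusted p 0.00838). AREG has few reads, as had nearly all genes that limma with a trend called falsely on simulated data. Nearly all of those genes were also short, whereas AREG has a length of 1648 bases. With limma-voom the log2 fold change was -2.99 (adjusted p 3.39e-06). That call was made in 10 of 18 alternatives, over which the log2 fold change ran from -3.26 to -1.42, the smallest with 1 FPKM added. It held without siIGF2BP1 replicate 3 (limma adjusted p 0.00953) and ended without siIGF2BP1 replicate 1 or 2 or siSRF replicate 1, 2 or 3 (limma adjusted p 0.0121 to 0.0457).

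TGFA, which encodes transforming growth factor alpha, was listed at 0 in 8 of the 9 libraries and at 0.0476 FPKM, from 2 reads, in siIGF2BP1 replicate 3. It did not pass the filter in any comparison. A count of 0 still allows up to 3 reads, which for TGFA is 0.0663 to 0.0916 FPKM depending on the library. This limit covers counting error only, since reads are not independent molecules.

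Summed over the 4 ligands, to which TGFA added only its 0.0476 FPKM in 1 library, the level of EGFR ligand mRNA was 34.7, 35.1 and 37.3 FPKM in siC, 13.0, 12.8 and 15.2 FPKM in siIGF2BP1 and 69.4, 66.7 and 68.9 FPKM in siSRF. The 3 groups were apart, with siIGF2BP1 lowest and siSRF highest, and the means were 35.7 ± 1.38, 13.7 ± 1.33 and 68.3 ± 1.49 FPKM (SD, n = 3 each). HBEGF made up a mean of 78.0% of this sum in siC, 74.1% in siIGF2BP1 and 66.3% in siSRF. The share of EREG was 14.7% to 16.4% in siC, 19.0% to 28.3% in siIGF2BP1 and 28.9% to 31.3% in siSRF, so that every knockdown library lay above every siC library. Relative to EGFR mRNA, the ligand sum was 1.65 ± 0.0721 in siC, 0.529 ± 0.0633 in siIGF2BP1 and 2.65 ± 0.154 in siSRF (ratio of FPKM, SD, n = 3 each). The plot of summed ligand levels stacks HBEGF, EREG and AREG for each library and leaves out TGFA, which would not be visible.

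**Figure D3:**
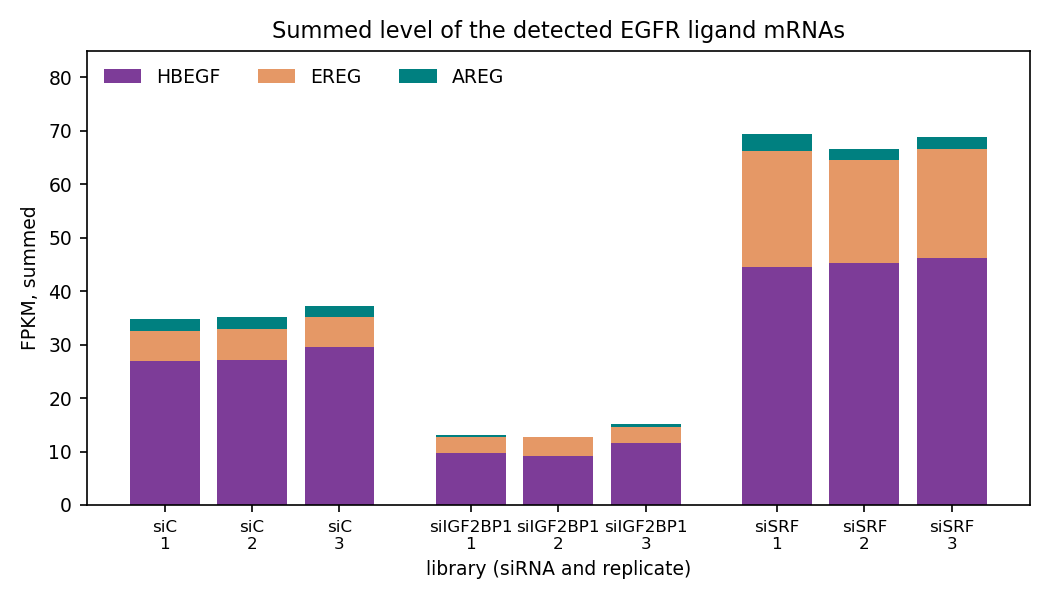
Summed level in FPKM (vertical axis) of HBEGF, EREG and AREG mRNA in each of the 9 libraries, with 1 stacked bar per library and replicates named below it. The sums run from 12.8 to 15.2 FPKM in siIGF2BP1, 34.7 to 37.3 FPKM in siC and 66.7 to 69.4 FPKM in siSRF.

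EREG and AREG lie next to each other on chromosome 4 (GRCh38, GENCODE release 44), both on the plus strand, EREG at chr4:74365145-74388749 and AREG at chr4:74445136-74455005, with 56386 bases between them. HBEGF lies at chr5:140332843-140346603 on the minus strand. Because these 3 ligands differed in the same direction between siIGF2BP1 and siSRF, the 250 bases before the start of each are shown from the RefSeq promoter table (GRCh38.p14), read 5′ to 3′ on the gene's own strand. The regions are chr4:74444886-74445135 for AREG, chr4:74364895-74365144 for EREG and chr5:140346604-140346853 for HBEGF. Capitals mark TATAAA and TGACGTCA.
AREG: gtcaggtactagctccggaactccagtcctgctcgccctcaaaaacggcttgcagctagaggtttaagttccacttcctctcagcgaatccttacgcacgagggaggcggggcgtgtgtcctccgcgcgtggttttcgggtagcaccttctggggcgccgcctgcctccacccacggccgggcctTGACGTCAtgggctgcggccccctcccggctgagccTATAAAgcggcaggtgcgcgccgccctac
EREG: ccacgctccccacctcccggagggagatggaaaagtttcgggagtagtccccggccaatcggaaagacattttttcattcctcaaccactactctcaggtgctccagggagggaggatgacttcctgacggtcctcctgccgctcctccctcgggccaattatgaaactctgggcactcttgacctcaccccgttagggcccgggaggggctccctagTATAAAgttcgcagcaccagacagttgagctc
HBEGF: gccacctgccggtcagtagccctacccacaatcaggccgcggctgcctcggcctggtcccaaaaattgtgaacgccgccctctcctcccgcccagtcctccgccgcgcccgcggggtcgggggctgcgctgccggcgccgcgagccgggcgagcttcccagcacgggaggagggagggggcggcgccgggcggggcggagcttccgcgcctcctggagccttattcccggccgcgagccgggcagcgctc
The table held windows of 300 bases (250 before to 50 after the start) for 8 of the 9 genes, all but ERBB3. Both strands were searched for the CArG box, the motif of SRF, for the AP-1 motif TGANTCA, for TATAAA and for TGACGTCA. None of the 8 genes had a CArG box in its windows, beside 1.29% of 35116 promoters of the same length. TATAAA was found from -29 to -24 in AREG and from -32 to -27 in EREG, relative to the start, and in the second window of EGFR, beside 11.5% of all promoters. TGACGTCA was found from -65 to -58 in AREG alone among the 8 genes, beside 1.85% of all promoters. TGANTCA was found in ERBB2 and at 2 places in the second window of EGFR, from -232 to -226 and from -136 to -130, beside 7.71% of all promoters. HBEGF, TGFA, MET and AXL had none of the 4 motifs in their windows. A match describes letters and not a binding site, and the lack of one says only that these letters are not in this window.

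EGFR, the receptor that binds all 4 ligands, was at 21.2, 22.0 and 21.5 FPKM in siC, 26.3, 26.1 and 25.3 FPKM in siIGF2BP1 and 25.9, 26.8 and 24.7 FPKM in siSRF. Both knockdown groups lay above every siC library and overlapped each other. The means were 21.6 ± 0.405, 25.9 ± 0.561 and 25.8 ± 1.06 FPKM (SD, n = 3 each) in siC, siIGF2BP1 and siSRF. EGFR rose by 0.26 on the log2 scale in siIGF2BP1 (SE 0.0418, limma adjusted p 0.00949), just inside the threshold. This call was made in 8 of 18 alternatives and ended in each of the 6 fits without 1 library, whichever siC or siIGF2BP1 library was left out (limma adjusted p 0.0211 to 0.0294). In siSRF the log2 fold change was also 0.26 (SE 0.0464), with a limma adjusted p of 0.0101, just outside the threshold. With limma-voom EGFR passed in siSRF at an adjusted p of 0.000224, within a range of 0.000224 to 0.0402 over its 18 alternatives, of which 8 made the call. Among these 8 was the fit at a threshold of 0.05, where the limma adjusted p was again 0.0101. The exact two-sided permutation p was 0.1 for both knockdowns against siC. Between siIGF2BP1 and siSRF the log2 fold change was 0.0035 with a 95% interval of -0.10 to 0.11 (limma adjusted p 0.974).

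ERBB2 and ERBB3, the partner receptors, were close to the limit of detection. ERBB2 had 9 reads in all 3 siC libraries together, 22 in siIGF2BP1 and 12 in siSRF, with mean levels of 0.0421 ± 0.0284, 0.0904 ± 0.0117 and 0.0518 ± 0.0301 FPKM (SD, n = 3 each). The siIGF2BP1 libraries, at 0.0885, 0.0797 and 0.103 FPKM, were above every siC library (exact two-sided permutation p = 0.1), but ERBB2 did not pass the filter in any comparison. ERBB3 had 23, 19 and 6 reads in siC, siIGF2BP1 and siSRF, with means of 0.130 ± 0.0852, 0.0920 ± 0.0694 and 0.0287 ± 0.0116 FPKM (SD, n = 3 each). The siSRF libraries of ERBB3 were below every siC library, with an exact two-sided permutation p of 0.1, while siIGF2BP1 overlapped siC. ERBB3 passed the filter for siIGF2BP1 against siC alone, with a log2 fold change of -0.28 (95% interval -1.62 to 1.06, limma adjusted p 0.790). Its sign turned when siC replicate 1 (0.0079) or siIGF2BP1 replicate 1 (0.056) was left out, so at this depth no direction can be given. Exons of PGAP3 and MIEN1 overlap ERBB2 on the other strand and had 255 and 1085 reads in the 9 libraries, against 43 for ERBB2. The library kit keeps the strand, but whether reads were counted by strand is not stated.

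MET, the HGF receptor, was at 56.4, 56.2 and 58.7 FPKM in siC, 50.7, 50.4 and 53.6 FPKM in siIGF2BP1 and 76.1, 75.3 and 74.9 FPKM in siSRF. The groups did not overlap, with siSRF well above siC and siIGF2BP1 a little below it. The means were 57.1 ± 1.41, 51.5 ± 1.76 and 75.5 ± 0.627 FPKM (SD, n = 3 each), from 2588 to 4831 reads per library. MET rose by 0.40 on the log2 scale in siSRF (SE 0.0353, limma adjusted p 0.000922), a call made in 17 of 18 alternatives and in each fit without 1 library. The exception was the fit with the replicate number as a block, at a limma adjusted p of 0.0128, where the 18 alternatives ran from 2.16e-08 to 0.0128. In siIGF2BP1 MET had a log2 fold change of -0.15 against siC (SE 0.0433, 95% interval -0.25 to -0.042), which limma did not call (adjusted p 0.0713), nor was it called in any of 18 alternatives. Between siIGF2BP1 and siSRF, MET had a log2 fold change of -0.55 (SE 0.0360, limma adjusted p 0.000132), called in all 18 alternatives.

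AXL, the GAS6 receptor, had the highest level of the 9 genes in every library. It was at 256, 274 and 280 FPKM in siC, at 516, 498 and 534 FPKM in siIGF2BP1 and at 208, 206 and 212 FPKM in siSRF. All siIGF2BP1 libraries were far above siC and all siSRF libraries below it, the reverse of the order of HBEGF and EREG. The means were 269.8 ± 12.4, 516 ± 17.9 and 209 ± 3.21 FPKM (SD, n = 3 each), from 7646 to 23300 reads per library. AXL rose by 0.93 on the log2 scale in siIGF2BP1 (SE 0.0561, limma adjusted p 0.000393), or 1.91-fold by the means, a call made in 17 of 18 alternatives and in every fit without 1 library. The exception was again the replicate block, at a limma adjusted p of 0.0108, where the alternatives ran from 4.05e-20 to 0.0108. In siSRF it fell by 0.37 on the log2 scale (SE 0.0468, limma adjusted p 0.00292), a call made in 12 of 18 alternatives. Of the fits without 1 library, the call in siSRF held without siC replicate 1 (limma adjusted p 0.00668) and ended without siC replicate 2 or 3 or siSRF replicate 1, 2 or 3 (limma adjusted p 0.0119 to 0.0234). The direct comparison gave a log2 fold change of 1.30 for siIGF2BP1 against siSRF (SE 0.0407, limma adjusted p 1.38e-05), called in all 18 alternatives. An antisense long non-coding RNA that overlaps AXL exons had 20 reads in the 9 libraries, against 116496 for AXL.

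The receptors lie apart from each other in the genome (GRCh38). EGFR is at chr7:55019017-55211628 and MET at chr7:116672196-116798377, both on the plus strand of the same chromosome. AXL is at chr19:41219223-41261766, ERBB2 at chr17:39687914-39730426 and ERBB3 at chr12:56076799-56103505, all on the plus strand, and TGFA is at chr2:70447284-70554193 on the minus strand. The Ensembl identifiers in the tables are ENSG00000109321 for AREG, ENSG00000124882 for EREG, ENSG00000113070 for HBEGF and ENSG00000163235 for TGFA. Those of the receptors are ENSG00000146648 for EGFR, ENSG00000141736 for ERBB2, ENSG00000065361 for ERBB3, ENSG00000105976 for MET and ENSG00000167601 for AXL.

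For each of the 5 members called against siC, the protein-coding genes with the nearest pattern were listed. The measure was the root mean square difference over the 9 libraries of log2(FPKM + 0.1), after subtraction of each gene's own siC mean, among 10379 genes. Nearest to EREG were BIRC3 (0.133), TNFRSF10D (0.173) and RAP1GAP2 (0.253), and nearest to HBEGF were ETS2 (0.216), UBASH3B (0.243) and SPRY2 (0.248). BIRC3, for example, had means of 3.27, 1.96 and 11.4 FPKM in siC, siIGF2BP1 and siSRF, and ETS2 had 7.08, 2.59 and 13.0 FPKM. Nearest to AXL were NEK6 (0.0684), MAN2B2 (0.0750) and UACA (0.0833), with means for NEK6 of 12.1, 22.8 and 9.92 FPKM. Nearest to MET were KLF6 (0.0266), DHX33 (0.0365) and EIF4G2 (0.0372), and nearest to EGFR were NRP1 (0.0339), MTOR (0.0405) and DPH6 (0.0460).

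The partners of MET and AXL were examined next. HGF, the ligand of MET, was listed at 0 in all 9 libraries, and MST1R, the receptor related to MET, had 6 reads in all. GAS6, the AXL ligand, had means of 6.09 ± 0.225, 11.5 ± 0.421 and 3.79 ± 0.418 FPKM (SD, n = 3 each) in siC, siIGF2BP1 and siSRF. GAS6 rose by 0.90 on the log2 scale in siIGF2BP1 (SE 0.0622, limma adjusted p 0.000593) and fell by 0.67 in siSRF (SE 0.0989, limma adjusted p 0.00484). The rise was called in 17 of 18 alternatives and in all 6 fits without 1 library. The fall was called in 11, and of the fits without 1 library only the 1 without siSRF replicate 3 kept that call. PROS1, which encodes protein S, a ligand of the receptors related to AXL, rose by 0.88 in siIGF2BP1 (SE 0.111, limma adjusted p 0.00413), called in 11 of 18 alternatives and in none of the fits without 1 library. In siSRF PROS1 had a log2 fold change of -0.21 (limma adjusted p 0.351). The receptors TYRO3 and MERTK, of the same family as AXL, were not called against siC, with log2 fold changes of 0.14 and -0.48 in siIGF2BP1 and -0.24 and 0.49 in siSRF. MST1, the ligand of MST1R, was not called either, at 0.056 and 0.50. Of the 7 partner genes, 5 were tested, with a median log2 fold change of 0.14 in siIGF2BP1 and -0.21 in siSRF, beside 0.017 and 0.0074 over all genes tested. In siIGF2BP1 2 were called higher and 0 lower, and in siSRF 0 higher and 1 lower. These counts were the same with limma-voom. The shares of all genes called were 7.12% and 12.2% with limma, and 17.1% and 23.4% with limma-voom.

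Of the other EGF-family ligands and ERBB4, a group of 8 genes, 4 passed the filter in each comparison with siC. NRG1, a ligand of ERBB3 and ERBB4, had means of 13.9 ± 0.975, 16.4 ± 0.522 and 9.97 ± 0.640 FPKM (SD, n = 3 each) in siC, siIGF2BP1 and siSRF. NRG1 fell by 0.48 on the log2 scale in siSRF (SE 0.0762, limma adjusted p 0.00659), a call made in 11 of 18 alternatives and in no fit without 1 library, and had 0.23 in siIGF2BP1 (limma adjusted p 0.0599). NRG2 had log2 fold changes of -0.21 in siIGF2BP1 and 0.57 in siSRF, with limma adjusted p of 0.496 and 0.0260, neither called, although limma-voom called NRG2 higher in siSRF. EGF and BTC, with siC means of 0.204 and 0.190 FPKM, were tested and not called, while EPGN had 2 reads and ERBB4 20 reads in the 9 libraries and NRG3 and NRG4 were listed at 0 in all of them. In this group limma called 0 of 4 genes in siIGF2BP1, beside 7.12% of all genes, while 1 gene, NRG1, had an unadjusted p of at most 0.05 and was called higher by limma-voom, beside its 17.1% of all genes. In siSRF limma called 0 higher and 1 lower, beside 12.2% of all genes, and limma-voom 1 higher and 1 lower, beside 23.4%. The medians were 0.011 in siIGF2BP1 and -0.26 in siSRF.

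The genes that act on the ligands and receptors were taken as lists, whose counts are to be read beside the 7.12% of all genes called in siIGF2BP1 and 12.2% in siSRF. For limma-voom these shares were 17.1% and 23.4%, so its counts are to be read beside those. Of 11 genes of ligand shedding (ADAM proteases and their regulators), 4 were called higher and 0 lower in siIGF2BP1, with a median log2 fold change of 0.22, where limma-voom called 5 higher and 0 lower, beside its 17.1% of all genes. The largest were ADAM19 with 1.41 (limma adjusted p 0.000141), ADAM12 with 1.36 (limma adjusted p 0.000215) and ADAM17 with 0.91 (limma adjusted p 0.000854). ADAM17, which releases AREG, EREG, HBEGF and TGFA from the membrane, went from 9.74 ± 0.663 FPKM in siC to 18.4 ± 0.929 FPKM after IGF2BP1 depletion and 13.7 ± 0.434 FPKM after SRF depletion (SD, n = 3 each). So in siIGF2BP1 the mRNA of this protease was higher while the HBEGF and EREG mRNAs were lower. In siSRF 3 of the 11 were called higher, ADAM9 with 1.03, ADAM17 with 0.49 and ADAM10 with 0.32 (limma adjusted p 0.000399, 0.00367 and 0.00681). TIMP3, an inhibitor of ADAM17, was called lower in siSRF with -1.07 and ADAM15 with -0.73 (limma adjusted p 0.000172 and 0.00272), and the median was -0.38. In siSRF limma-voom called 3 higher and 5 lower, beside its 23.4% of all genes. ADAM12 and ADAM19 in siIGF2BP1 and ADAM9 and TIMP3 in siSRF were called in all 18 alternatives. The call of ADAM17 in siIGF2BP1 ended without siIGF2BP1 replicate 1 or 3, in siSRF it ended without siC replicate 1 or any 1 siSRF library, and that of ADAM15 held only without siC replicate 1. ADAM10 was called in 10 of 18 alternatives and in no fit without 1 library.

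Of 21 genes of receptor turnover and inhibition, 20 were tested. In siIGF2BP1, 2 were called higher and 3 lower, with a median log2 fold change of 0.068, and in siSRF 6 were called higher and 0 lower, with a median of 0.16. With limma-voom these counts were 4 higher and 6 lower in siIGF2BP1, and 7 higher and 2 lower in siSRF, beside 17.1% and 23.4% of all genes. LRIG1, a membrane inhibitor of EGFR, rose by 0.99 in siIGF2BP1 (limma adjusted p 0.000601), and SOCS3, an inhibitor of cytokine signalling, rose by 1.23 (limma adjusted p 0.00201). The genes called lower there were CBL, the ubiquitin ligase of EGFR and MET, with -0.69, ERRFI1, an EGFR inhibitor in the cytoplasm, with -0.66, and the CBL-bound adaptor CD2AP with -0.66 (limma adjusted p 0.00584, 0.00125 and 0.00325). ERRFI1 was abundant, at 183 ± 13.0 FPKM in siC and 115 ± 1.59 FPKM in siIGF2BP1 (SD, n = 3 each). In siSRF the largest rises were those of SOCS3 with 1.17, the ubiquitin ligase NEDD4 with 1.05 and the phosphatase PTPN2 with 0.75 (limma adjusted p 0.000801, 0.000473 and 0.00105). LRIG1 in siIGF2BP1 and SOCS3, NEDD4 and PTPN2 in siSRF were called in each fit without 1 library. Of the others in siIGF2BP1, SOCS3 and CBL lost the call whichever library was left out, CD2AP kept it only without siIGF2BP1 replicate 2, and ERRFI1 only without siC replicate 2 or 3.

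Of 25 genes of receptor adaptors and the entry to the RAS and PI3K pathways, 23 were tested. In siIGF2BP1 1 was called higher and 2 lower, with a median log2 fold change of -0.023, and in siSRF 1 was called higher and 3 lower, with a median of -0.036. The limma-voom counts were 2 higher and 5 lower in siIGF2BP1, and 3 higher and 6 lower in siSRF, beside 17.1% and 23.4% of all genes. STAT3, a transcription factor activated by these receptors, rose by 0.63 in siIGF2BP1, where the kinases MAP2K2 and MAP2K1 had log2 fold changes of -0.55 and -0.49 (limma adjusted p 0.00172, 0.00332 and 0.00385). In siSRF the kinase subunit PIK3CA rose by 0.54, while AKT1, MAPK3 and MAP2K2 had -0.73, -0.69 and -0.67 (limma adjusted p 0.00358, 0.000743, 0.00603 and 0.00179). AKT1 was called in each fit without 1 library, and MAP2K1 and MAP2K2 in siIGF2BP1 and PIK3CA and MAPK3 in siSRF in none. The remaining calls held in some: STAT3 without siC replicate 1 or 3, and MAP2K2 in siSRF without siC replicate 1 or siSRF replicate 3.

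Of 25 other growth-factor receptor tyrosine kinases, 16 were tested in siIGF2BP1, with 4 called higher, 1 lower and a median log2 fold change of 0.31. ROR1 rose by 2.70, from 0.631 ± 0.106 to 4.64 ± 0.592 FPKM, PDGFRB by 2.07, from 0.143 ± 0.0248 to 0.925 ± 0.143 FPKM, and KIT by 1.75, from 2.07 ± 0.224 to 7.22 ± 0.708 FPKM (SD, n = 3 each; limma adjusted p 0.000514, 0.00684 and 0.000601). TIE1, an endothelial receptor, had -0.72 (limma adjusted p 0.00265). In siSRF 15 were tested and 1 was called, EPHA4 with 0.72 (limma adjusted p 0.00324), beside a median of 0.011. With limma-voom, 6 were called higher and 2 lower in siIGF2BP1, and 5 higher and 2 lower in siSRF, beside 17.1% and 23.4% of all genes. ROR1 and KIT were called in each fit without 1 library and PDGFRB in none, while TIE1 and EPHA4 kept the call in 1 such fit each, without siC replicate 1 and without siC replicate 3. The plot of the lists shows each gene tested.

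**Figure D4:**
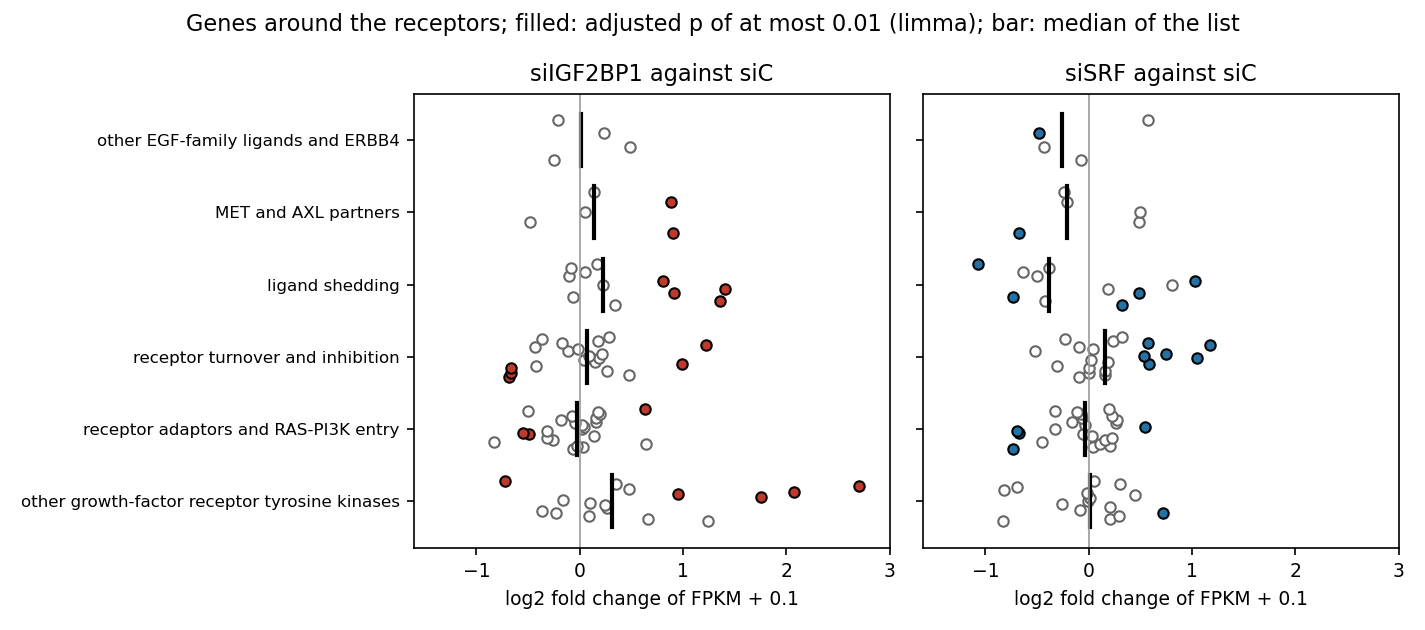
Log2 fold change of FPKM + 0.1 (horizontal axis) of each gene tested in the 6 lists around the receptors, against siC, with filled points at a limma adjusted p of at most 0.01 and a bar at the median of the list. The farthest points to the right are ROR1, PDGFRB and KIT in siIGF2BP1.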

How the data were processed

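Total RNA-seq of 9 ES-2 libraries was used, grouped by label as siC, siIGF2BP1 and siSRF (3 each). According to the submitters' processing notes, reads were trimmed with cutadapt 1.14, aligned with HISAT2 2.1.0, sorted with SAMtools 1.5 and counted with featureCounts 1.5.3. The authors deposited FPKM for 58174 genes in a table for each knockdown; the siC values are the same in both. The tables also hold the authors' log2 fold changes, p-values and FDR from edgeR 3.18.1, which were not used. Reads on genes were recovered from FPKM and gene length and were whole within 0.1 for 100% of values.

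Tests were run in R 4.3.3 with limma 3.58.1 (eBayes with a trend, two-sided) on log2(FPKM + 0.1), for every gene that averaged 0.1 FPKM or more in the 6 libraries compared. Benjamini-Hochberg adjustment covered the whole set of genes tested, and a gene was called at an adjusted p of at most 0.01. Exact permutation tests used SciPy 1.17.1. On simulated data, limma with a trend made more false calls than its threshold allows, nearly all among short genes with few reads, and missed many changed genes when few genes were changed. For that reason the counts called by limma-voom on the recovered reads are given beside it. The alternatives were other pseudocounts, filters, scaling and thresholds, robust moderation, all 9 libraries in 1 fit, limma-voom, adjustment over protein-coding genes, a replicate block, removal of trends along GC content and gene length, and leaving out each library in turn. In the alternative with the other threshold, a gene was counted as called at an adjusted p of at most 0.05.

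The members and the gene lists were chosen with earlier results of these data known. The genes named were the 9 members, IGF2BP1 and SRF, every gene of the lists of other EGF-family ligands with ERBB4 and of MET and AXL partners, up to 3 called genes in each direction with the largest change in each other list and comparison with siC, the 3 genes nearest to each member called against siC with a mean of at least 1 FPKM, and the cell type markers. Genes on the other strand that overlap ERBB2 or AXL were named after their values were seen. Locations are from GENCODE 44, which is newer than the annotation behind the deposited tables. Promoter sequences are from RefSeq (GRCh38.p14). The motifs TATAAA and TGACGTCA were chosen after the sequences were read.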

Additional observations from a re-analysis of the deposited data

Results flagged for a closer look

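For 5 members the effects of the knockdowns differed from each other by a test of the difference itself, the limma comparison of siIGF2BP1 with siSRF, in which the shared siC libraries play no part. The log2 fold change of siIGF2BP1 against siSRF was -2.78 for AREG, -2.66 for EREG, -2.16 for HBEGF, -0.55 for MET and 1.30 for AXL, with an adjusted p of at most 0.01 for each. Of all 22311 genes tested in this comparison, 20.0% were called, and 31.0% with limma-voom. For EREG, HBEGF and AXL all libraries of a knockdown lay on 1 side of siC and all libraries of the other knockdown on the opposite side. This was also so for MET, although MET in siIGF2BP1 was not called against siC. The share of all genes with libraries placed in this way is not given here, so nothing is read from it about these members. For AREG, a gene with few reads, the siSRF libraries overlapped siC, its call ended in 8 of 18 alternatives, 5 of the 6 fits without 1 library among them, and its log2 fold change ran from -3.26 to -1.42, while the calls of the other 4 genes were made in all 18. What lies behind these differences was not tested.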

How the results depend on the processing

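The counts of genes and members called and the log2 fold changes of the members tested and of IGF2BP1 and SRF were recomputed under 18 alternatives per comparison, 12 other settings and 6 fits without 1 library. ERBB3 had 17, since it did not reach a mean of 1 FPKM. Ligand sums, list medians, nearest genes and marker sums were not recomputed. Every called log2 fold change of a member kept its sign in all of them, including both scalings of the libraries (median ratio, and removal of trends along GC content and gene length). No alternative moved the median of all genes by more than 0.1 on the log2 scale. Over the single log2 fold changes of the members, and of IGF2BP1 and SRF outside their own knockdown against siC, 360 values stayed on the same side of the threshold with the same sign, 12 passed it newly, 35 no longer passed it and 6 turned in sign. None of those 6 was called in the comparison concerned. They were ERBB3 in siIGF2BP1 against siC without siC replicate 1 (0.0079) and without siIGF2BP1 replicate 1 (0.056), where the fits without 1 library ran from -0.50 to 0.056, and EGFR in siIGF2BP1 against siSRF with GC and length trends removed (-0.10), without siIGF2BP1 replicate 1 (-0.0092) or 2 (-0.0014) and without siSRF replicate 3 (-0.028), where such fits reached up to 0.031.

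The number of genes called in siIGF2BP1 against siC, 1588, was 3805 with limma-voom, 3596 at an adjusted p of 0.05 and 2481 with all 9 libraries in 1 fit. In siSRF against siC, 2665 genes became 5123 with limma-voom and 5205 at 0.05, and in siIGF2BP1 against siSRF 4460 became 6912 and 7132. Without 1 library, and so with fewer samples, the counts were 273 to 551, 673 to 1515 and 2638 to 3196 in the same order. The members called in siIGF2BP1 against siC, 4, were then 2 to 3. Except for fewer samples and the other threshold, the cause of these shifts was not tested.

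With the replicate block, 91, 501 and 2075 genes were called, and 1 member in siIGF2BP1 against siC (HBEGF) and 2 in siSRF against siC (EREG and HBEGF). After the group means were removed, libraries of different groups with the same replicate number correlated across genes at -0.0438 to 0.0186. No shared shift by replicate number was thus seen across genes. The labels do not say whether libraries of the same number were prepared together, and these correlations cannot decide it. The block also leaves the test fewer degrees of freedom, and the part of this in the lower counts was not tested.

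Depth limits AREG (1 to 38 reads per library), ERBB2 and ERBB3 (at most 13 reads per library) and TGFA (0 to 2 reads). Between replicates, the chi-square per gene of the reads was 1.73 to 3.94, above the 1 of counting error alone. The values are mRNA levels of 1 line at 1 time point, and protein, release of the ligands and receptor activity were not analysed here.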
